A study of Mus musculus with 6 samples.

Results

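The Hippo pathway genes Yap1, Wwtr1, Tead1, Tead3, Lats1, Lats2, Amot, Amotl1, Amotl2 and Nf2 were followed in nuclei of neonatal mouse brains after injection of lysophosphatidic acid (LPA). These 10 genes were chosen by symbol, as genes of a known route of LPA receptor signaling, from the 32285 genes counted. C57BL/6 S-56 pups received 5 µl of LPA, or of vehicle, which was bovine serum albumin, into the right lateral ventricle at P7, and brains without olfactory bulbs and cerebellum were collected at P15. This is a model of hydrocephalus after brain hemorrhage, in which LPA, a lipid of blood, is given in place of blood, and the labels give the 6 samples no other genotype or agent. Nuclei were stained for NeuN, a protein of neuronal nuclei, the NeuN-negative ones were sorted, and 10x Genomics 3′ v3 libraries were made from 3 LPA and 3 vehicle samples. The labels number the samples of a group but do not say that they are separate animals. The study's captions describe the points of its single-nucleus data as individual mice. The p-values here measure the spread between these libraries.

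The Hippo pathway is a kinase chain that holds back a pair of transcriptional coactivators, YAP (encoded by Yap1) and TAZ (encoded by Wwtr1). When the LATS kinases phosphorylate them, YAP and TAZ stay in the cytoplasm, and when the kinases are quiet they enter the nucleus and act with TEAD factors, which bind DNA. Merlin (Nf2) and the angiomotins (Amot, Amotl1, Amotl2) act on this switch at cell junctions and the actin cytoskeleton, and LPA receptors are a known way to release YAP and TAZ. Much of this regulation is on proteins, and nuclear RNA measures none of it.

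The 6 libraries held 63383 barcodes, 8639 to 12894 per library, with 48852970 to 65688644 unique molecular identifiers (UMIs) per library. After filtering 57443 nuclei were kept, and 49084 of them lay in clusters that were given 1 of 10 cell types from marker genes. A library held 98 to 3533 nuclei of a type. A cluster of 1373 nuclei led by F13a1, which the study took as a macrophage marker, and Mrc1 was left unnamed. Of its nuclei 62.9% were called doublets. The immune cells here were clusters led by Siglech and by Gpnmb, and do not cover that cluster. The summed markers of each type were at least 3.52-fold higher in each of its own libraries than in any library of another type. The least distinct type was the neurons, which despite the NeuN sort were the largest type, with 14348 nuclei. Between 16 and 39 barcodes were shared by a pair of libraries.

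Levels are given as CPM, the UMIs of a gene scaled to a common total of UMIs in each cell type and library with TMM factors, and as mean ± SD over the 3 libraries of a group. UMIs from introns were counted, which grow with gene length, so levels were compared between cell types and not between genes. The coactivators and the TEAD factors were lower in the oligodendrocyte lineage, immune cells and neurons than in the other types. Those are cells of the vessels, the meninges and the ventricle lining, and astrocytes. An exception was Tead3 in endothelial cells, where it was also low. In vehicle libraries, Yap1 (ENSMUSG00000053110, chr9:7931999-8004596, GRCm38) was highest in choroid plexus epithelium, the tissue that makes cerebrospinal fluid, at 160 ± 6.54 CPM. Meningeal cells (136 ± 17.9 CPM), multiciliated ependymal cells (120 ± 22.8 CPM), pericytes and smooth muscle (97.1 ± 28.3 CPM) and astrocytes (92.3 ± 0.807 CPM) followed, and each neighbour in this order overlapped the next. Endothelial cells lay below astrocytes without overlap (66.9 ± 4.85 CPM). Oligodendrocyte precursors (10.8 CPM), immune cells (7.33 CPM), neurons (6.39 CPM) and oligodendrocytes (3.59 CPM) were far lower, and the highest type was 44.5-fold above the lowest. UMIs from free RNA were not removed, so that the lowest levels may hold no expression at all.

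**Figure D1:**
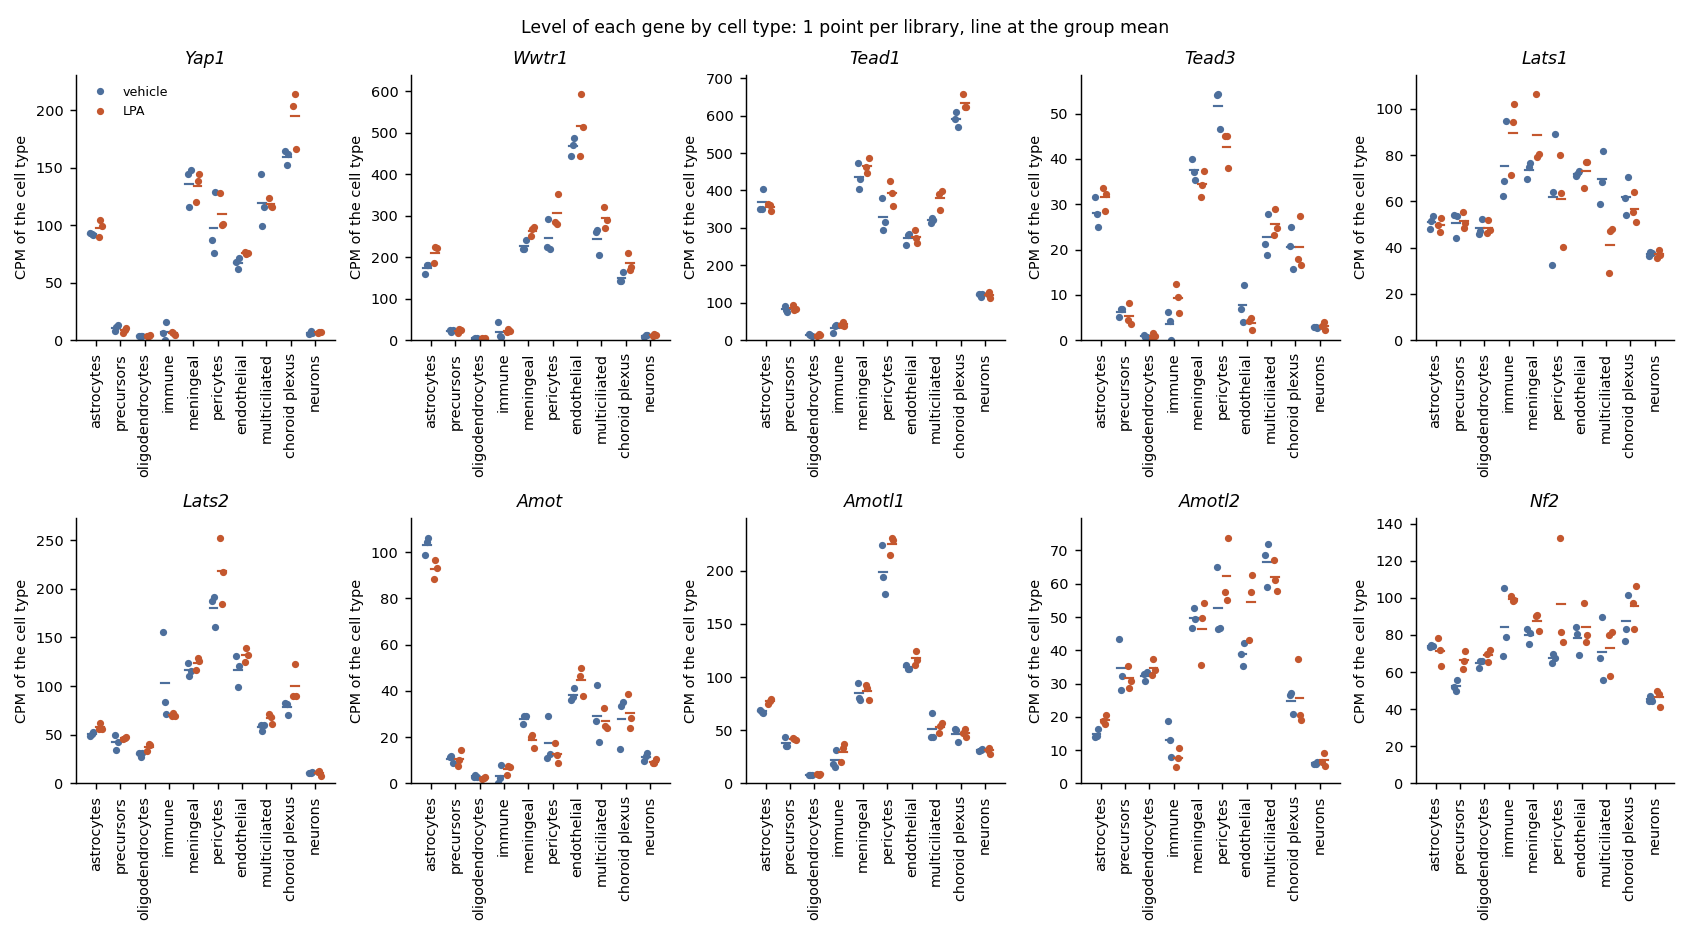
Level of each of the 10 genes (1 panel each) in the 10 cell types, in CPM on a linear axis from 0, with 1 point per library (vehicle blue, LPA orange) and a line at the group mean. In vehicle libraries Yap1, Wwtr1 and Tead1 span 44.5-fold, 102-fold and 42.5-fold from the lowest to the highest type, and Lats1 and Nf2 only 2.01-fold and 1.92-fold.

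Wwtr1 (ENSMUSG00000027803, chr3:57455649-57575910) had another order. It was highest in endothelial cells, at 468 ± 21.8 CPM, above every other type without overlap. Pericytes and smooth muscle (246 ± 40.9 CPM), multiciliated ependymal cells (244 ± 33.6 CPM) and meningeal cells (228 CPM, 220 to 241 CPM in single libraries) did not differ beyond their spread. Astrocytes (174 ± 12.3 CPM) and choroid plexus epithelium (150 ± 12.5 CPM) overlapped each other. Precursors (22.7 CPM), immune cells (20.7 CPM, on 13 UMIs over the vehicle libraries) and neurons (10.5 CPM) were low, and oligodendrocytes were lowest at 4.58 CPM.

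Of the DNA-binding partners, Tead1 (ENSMUSG00000055320, chr7:112679318-112906807) was highest in choroid plexus epithelium at 590 ± 20.0 CPM, ahead of meningeal cells (436 CPM) and astrocytes (368 CPM). It was lowest in oligodendrocytes (13.9 CPM), while neurons (120 CPM) and precursors (83.3 CPM) lay between these and endothelial cells (273 CPM). Tead3 (ENSMUSG00000002249, chr17:28331671-28350817) was highest in pericytes and smooth muscle (51.7 ± 4.41 CPM), followed by meningeal cells (37.5 CPM) and astrocytes (28.1 CPM), and was near 0 in oligodendrocytes (0.903 CPM). In endothelial cells Tead3 was at 7.66 ± 4.13 CPM on 24 UMIs, which overlapped its level in precursors (6.27 CPM).

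The kinases differed from each other. Lats1 (ENSMUSG00000040021, chr10:7681214-7716460) stayed between 37.4 CPM in neurons and 75.3 CPM in immune cells, and the order of its types was broken by a gap between neighbours at 1 place only. Lats2 (ENSMUSG00000021959, chr14:57689662-57758388) was highest in pericytes and smooth muscle at 180 ± 16.8 CPM, next to endothelial and meningeal cells (both 117 CPM), and lowest in neurons at 10.8 CPM. Nf2 (ENSMUSG00000009073, chr11:4765845-4849536), which encodes the junction protein Merlin, ran from 45.3 CPM in neurons to 87.3 CPM in choroid plexus epithelium.

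The angiomotins differed in their order of types. Amot (ENSMUSG00000041688, chrX:145446425-145505181) stood out in astrocytes, at 103 ± 3.85 CPM against 38.1 ± 2.73 CPM in endothelial cells, the next type, and the libraries did not overlap. Amotl1 (ENSMUSG00000013076, chr9:14541966-14645056) was highest in pericytes and smooth muscle (199 ± 23.3 CPM), followed by endothelial cells (109 CPM), meningeal cells (84.6 CPM) and astrocytes (67.7 CPM). Amotl2 (ENSMUSG00000032531, chr9:102716672-102733418) was highest in multiciliated ependymal cells (66.4 CPM), where it overlapped its level in pericytes and smooth muscle (52.7 CPM). It was also the only one of the 10 genes that was higher in oligodendrocytes (32.3 CPM) and their precursors (34.6 CPM) than in astrocytes (14.8 CPM).

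Across the 10 types, the log2 levels of Yap1 and Wwtr1 (Pearson's r = 0.94), Yap1 and Tead1 (0.93) and Wwtr1 and Tead1 (0.88) ran closely together. These values describe 10 types that share 6 libraries. Among 14466 genes, the pattern most like that of Yap1 was that of Ttc23 (0.97), Six5 (0.97) and Parva (0.95), and most like that of Wwtr1 was that of Spr (0.97), Ttc23 (0.97) and Nkapd1 (0.96). Tead1 was most like Parva (0.97), Rara (0.96) and Gpc4 (0.96), and Tead3 most like Fgf2 (0.98), Mmp14 (0.95) and F420014N23Rik (0.95). For Lats1 the nearest genes were Klf3 (0.97), Smurf2 (0.97) and Nadsyn1 (0.96), for Lats2 Zfp229 (0.98), Alkbh5 (0.98) and Irf3 (0.97), and for Nf2 Gpbp1l1 (0.95), Mavs (0.95) and Rfc1 (0.95). Amot was nearest to Micall2 (0.96), Nhsl1 (0.95) and Znrf3 (0.94), Amotl1 to Utrn (0.97), Il17rd (0.96) and Hes1 (0.93), and Amotl2 to Vangl1 (0.89), Pawr (0.85) and Ahsa2 (0.84).

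LPA libraries were then compared with vehicle libraries within each type, to ask whether RNA of the pathway differed 8 days after injection. A gene was called when edgeR's quasi-likelihood test gave an adjusted p below 0.05 (Benjamini-Hochberg over all genes tested in the type) and the log2 fold change was 0.25 or more either way. Of 100 pairs of a member and a type, 93 had enough UMIs to be tested. Untested were Tead3 in oligodendrocytes, immune and endothelial cells, Yap1, Amot and Amotl2 in immune cells, and Amot in pericytes and smooth muscle. A single pair was called, Wwtr1 in astrocytes.

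In astrocytes 1 of 10 members was called, where 7.96% of all genes were, and the median log2 fold change of the members was 0.13 against -0.01 over all genes. Wwtr1 was at 187, 225 and 222 CPM in the LPA libraries and at 160, 181 and 182 CPM in the vehicle libraries. Every LPA library lay above every vehicle library, though the lowest LPA library was close to the highest vehicle library. Wwtr1 rose 1.21-fold (log2 fold change 0.27, SE 0.077, edgeR adjusted p = 0.0346). The call was lost without LPA 2 (0.23, edgeR adjusted p = 0.183), LPA 3 (0.24, 0.157), vehicle 1 (0.22, 0.0822), vehicle 2 (0.30, 0.0703) or vehicle 3 (0.30, 0.0536). It was also lost with the sex of the libraries as a covariate (0.22, edgeR adjusted p = 0.0979). Sex was read from UMIs of Xist and of Y-linked genes. By these, LPA 1, vehicle 1 and vehicle 3 were male and the other libraries female, so the groups are not balanced. Multiciliated ependymal markers summed to 162 to 177 CPM in LPA astrocytes and 82.9 to 107 CPM in vehicle astrocytes, and their part in the result was not tested.

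Its partner Yap1 was at 89.4, 105 and 99.0 CPM against 93.2, 92.2 and 91.6 CPM in astrocytes, so that LPA libraries lay on either side of the vehicle ones. The log2 fold change of Yap1 was 0.08, with a 95% interval of -0.07 to 0.24 (edgeR adjusted p = 0.589). In choroid plexus epithelium, its highest type, Yap1 was at 203, 214 and 166 CPM against 165, 152 and 162 CPM, a difference of 0.28 that was not called (edgeR adjusted p = 0.794).

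**Figure D2:**
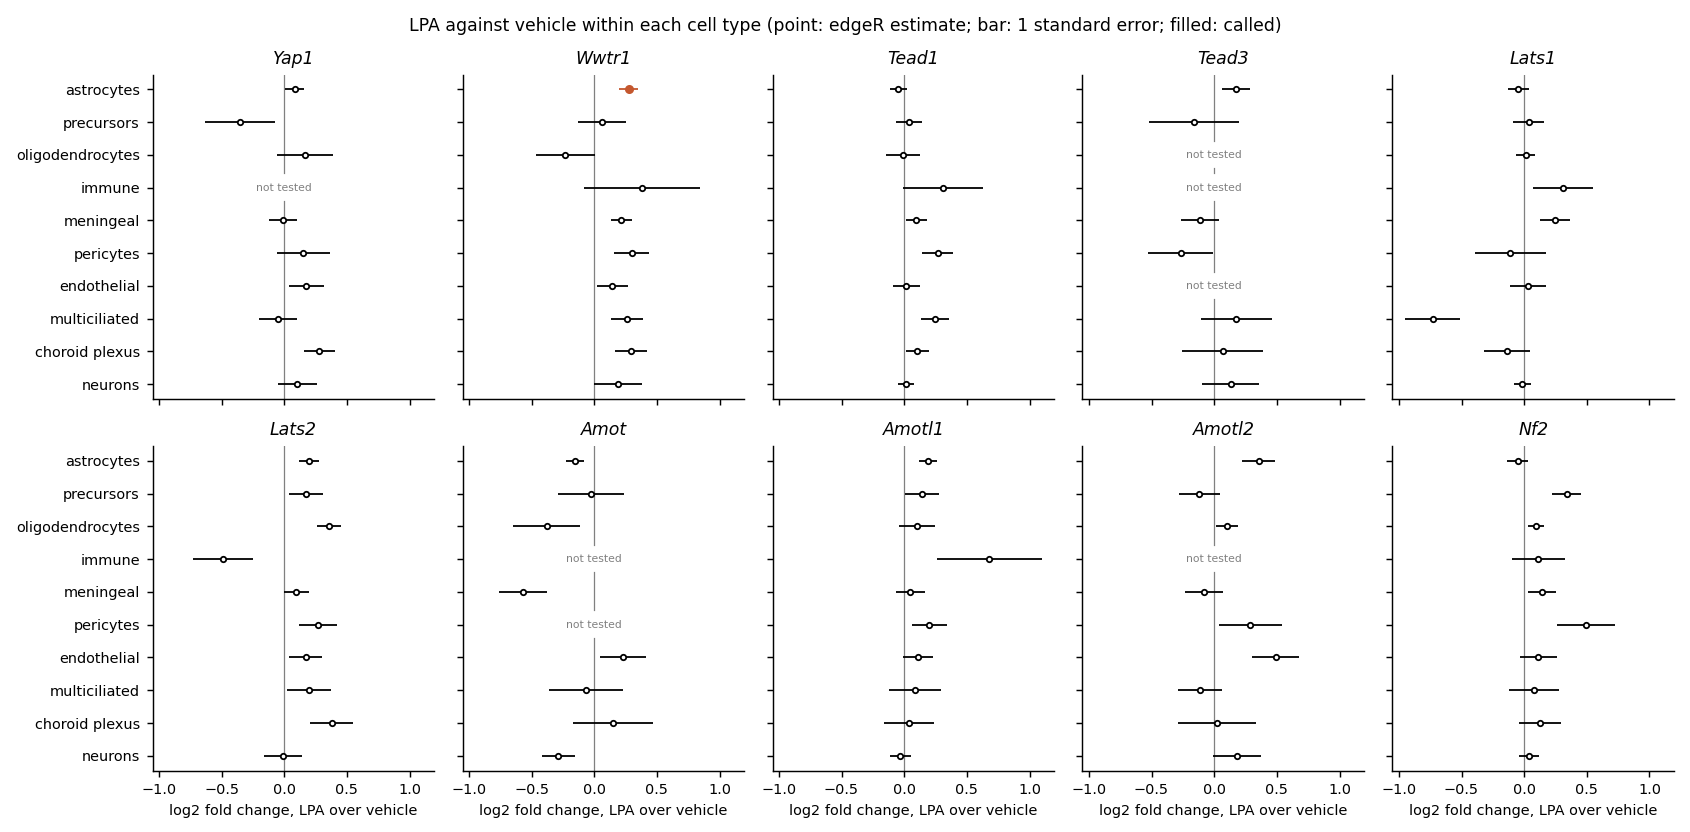
Log2 fold change of LPA over vehicle (horizontal axis) for each of the 10 genes (1 panel each) in each of the 10 cell types, as the edgeR estimate with a bar of 1 standard error, filled where called. The only filled point is Wwtr1 in astrocytes (0.27), and genes with too few UMIs are marked as not tested.

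The estimate of Wwtr1 was above 0 in 9 of 10 types and below 0 in oligodendrocytes (-0.23), its lowest type. Outside astrocytes it was largest in immune cells (0.38, on 13 vehicle UMIs), pericytes and smooth muscle (0.30) and choroid plexus epithelium (0.29), none of them called. The types share their 6 libraries, so these estimates are not independent of each other.

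No member was called in the other 9 types, in which 83 pairs were tested. DESeq2 called 0 there too, but its count over all genes is given here for endothelial cells only. Of the 83 pairs 14 had an unadjusted edgeR p under 0.05. Among all genes, such p-values numbered 1097 of 12469 in oligodendrocyte precursors, 2073 of 14227 in oligodendrocytes and 1833 of 9333 in immune cells. They numbered 1267 of 12407 in meningeal cells, 587 of 7731 in pericytes and smooth muscle and 1764 of 10843 in multiciliated ependymal cells. In choroid plexus epithelium they numbered 616 of 10072, and in neurons 1187 of 16893. Of all genes the rule for a call took 0.441% in oligodendrocyte precursors, 2.58% in oligodendrocytes and 8.94% in immune cells. It called 1.07% in meningeal cells and 0.168% in pericytes and smooth muscle. It called 3.88% in multiciliated ependymal cells, 0.0496% in choroid plexus epithelium, 0.0592% in neurons and 0% in endothelial cells, where 706 of 11311 genes had an unadjusted p under 0.05 and DESeq2 called 6. The median of the members lay between 0.03 in neurons and 0.31 in immune cells, beside a median over all genes between -0.02 and 0.00.

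The kinases came closest to a call. Lats2 in oligodendrocytes was at 33.7, 40.8 and 39.2 CPM in LPA libraries and 31.2, 27.0 and 31.3 CPM in vehicle libraries, with no overlap. The log2 fold change of Lats2 was 0.35 (SE 0.097, edgeR adjusted p = 0.0677), and it was called without LPA 1 (0.43), with no filter on low counts (0.35) and without the filter on mitochondrial UMIs (0.40). Precursor markers in the oligodendrocyte sums were at 2460 to 2816 CPM with LPA and 1857 to 1950 CPM with vehicle, oligodendrocyte markers at 29214 to 30196 and 31780 to 32270 CPM, and their part in the result was not tested. In the 4 clusters of oligodendrocytes Lats2 differed by -0.08 to 0.34, with no call. Lats1 in multiciliated ependymal cells was at 28.9, 47.2 and 47.9 CPM against 59.1, 68.4 and 81.8 CPM, again without overlap. The log2 fold change of Lats1 was -0.73 (SE 0.22, edgeR adjusted p = 0.0687), on 129 and 120 UMIs. Oligodendrocyte markers in these ependymal sums summed to 1373 to 1956 CPM with LPA and 3112 to 4219 CPM with vehicle, and with Scrublet's doublets left out Lats1 was called (-1.02), as it was with no filter on low counts (-0.70) and with the sex covariate (-0.88). Lats2 in astrocytes was at 55.4, 62.2 and 56.2 CPM against 48.9, 50.5 and 52.5 CPM (0.19, adjusted p = 0.166).

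**Figure D3:**
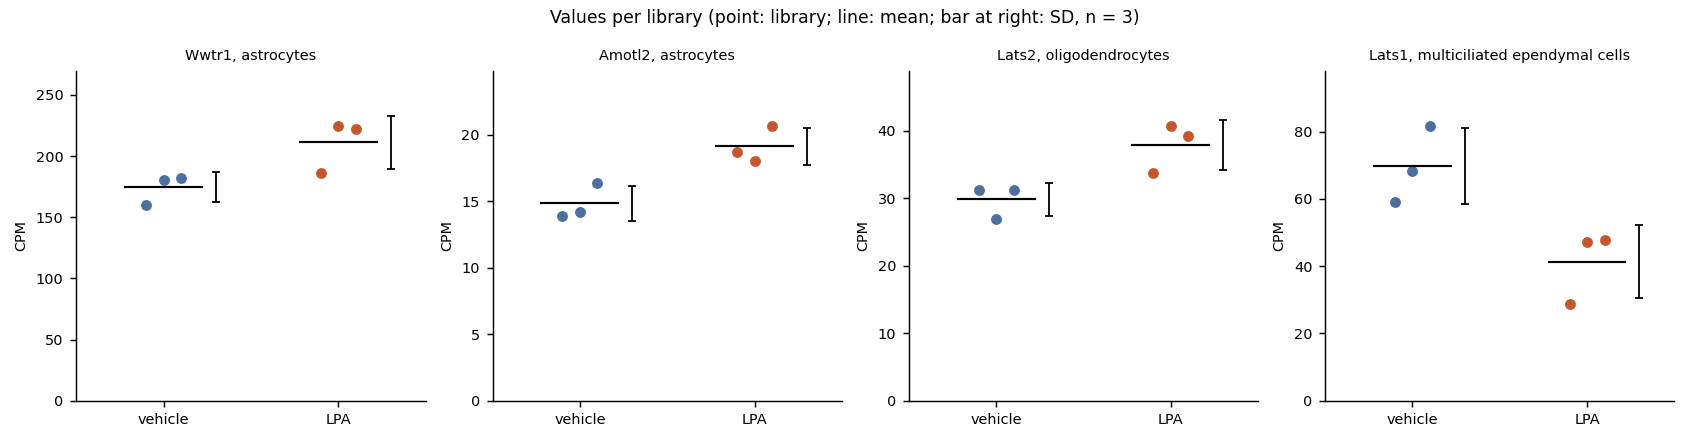
CPM in each library for Wwtr1 and Amotl2 in astrocytes, Lats2 in oligodendrocytes and Lats1 in multiciliated ependymal cells, with 1 point per library, a line at the group mean and a bar for the SD (n = 3). The 3 LPA libraries of Wwtr1 sit between 187 and 225 CPM and the 3 vehicle libraries between 160 and 182 CPM. In no panel do the groups overlap, and the share of all genes without overlap was not counted.

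Among the angiomotins, Amotl2 in astrocytes was at 18.7, 18.0 and 20.7 CPM against 13.9, 14.2 and 16.4 CPM, a log2 fold change of 0.36 (SE 0.13, edgeR adjusted p = 0.113). Amotl1 in astrocytes was at 74.7, 77.3 and 79.2 CPM against 69.0, 67.3 and 66.7 CPM (0.19, adjusted p = 0.144). Amot differed the other way, at 88.6, 96.6 and 93.2 CPM against 98.9, 104 and 106 CPM in astrocytes (-0.15, adjusted p = 0.218). In meningeal cells Amot was at 20.1, 20.8 and 15.3 CPM against 25.5, 29.2 and 29.0 CPM (-0.57, adjusted p = 0.211). None of these angiomotin differences was called. The groups did not overlap in any of them, but the share of all genes without overlap was not counted. Here, and for Lats1 and Lats2 above, a lack of overlap is thus a description only.

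The TEAD factors and Nf2 were not called in astrocytes. Tead1 was at 356 ± 10.1 CPM in LPA and 368 ± 30.9 CPM in vehicle libraries (-0.05, 95% interval -0.19 to 0.10). Tead3 was at 31.5 ± 2.60 CPM against 28.1 ± 3.31 CPM (0.17), and Nf2 at 71.3 ± 7.41 CPM against 73.9 ± 0.708 CPM (-0.05). The lowest unadjusted p of Nf2 was in oligodendrocyte precursors, with 66.3 ± 4.87 CPM against 52.7 ± 2.94 CPM (0.34, edgeR adjusted p = 0.304).

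Whether the effect of LPA on a member in a type differed from that in astrocytes was tested with limma on differences within a library. None of 83 pairs passed an adjusted p of 0.05, and 7 had an unadjusted p under 0.05. Among all genes, such p-values numbered 1306 of 12228 in oligodendrocyte precursors, 1703 of 13400 in oligodendrocytes and 1305 of 9022 in immune cells. They numbered 1248 of 11975 in meningeal cells, 622 of 7609 in pericytes and smooth muscle and 1444 of 10503 in multiciliated ependymal cells. In endothelial cells they numbered 912 of 11050, in choroid plexus epithelium 876 of 9875 and in neurons 1681 of 14295. The lowest adjusted p, 0.261, was that of Lats1 in multiciliated ependymal cells (-0.71, SE 0.23). Of all genes, limma called 0.0409% in oligodendrocyte precursors, 0.0373% in oligodendrocytes, 0.499% in immune cells, 0.284% in meningeal cells and 0.0263% in pericytes and smooth muscle, 0.0476% in multiciliated ependymal cells, 0.238% in neurons, and 0% in endothelial cells and in choroid plexus epithelium.

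The astrocytes fell into 3 clusters, and the members were examined in each after their values in all astrocytes had been seen. The cluster led by Gfap and Myoc, called the Gfap-rich cluster here after a filament gene that astrocytes raise in injury, held 1949 nuclei. It held 427, 510 and 431 nuclei in the LPA libraries (24.7%, 24.5% and 27.0% of their astrocytes) and 123, 247 and 211 in the vehicle libraries (11.1%, 12.5% and 11.5%). In this cluster 2 of 10 members were called, Wwtr1 and Amotl2, where 8.7% of all genes were.

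In the Gfap-rich cluster Wwtr1 was at 251, 238 and 260 CPM in LPA and 118, 165 and 216 CPM in vehicle libraries, and rose 1.48-fold (log2 fold change 0.56, SE 0.14, edgeR adjusted p = 0.0110). The vehicle libraries were widely spread, and the call was lost without LPA 3 (adjusted p = 0.0518). Amotl2, which encodes an angiomotin and is itself a known target of YAP and TAZ, was at 32.1, 30.8 and 39.6 CPM against 9.57, 14.4 and 14.7 CPM. Every LPA library was above every vehicle library by a wide gap. Amotl2 rose 2.55-fold (1.35, SE 0.32, edgeR adjusted p = 0.00776), on 150 UMIs in LPA and 17 in vehicle libraries, and DESeq2 did not call it (adjusted p = 0.0571). Yap1 was at 93.5 ± 10.1 CPM against 100 ± 24.8 CPM (-0.12). Tead3 (0.80, adjusted p = 0.121) and Amotl1 (0.46, adjusted p = 0.133) were not called. Amot was at 64.2, 68.5 and 61.6 CPM against 57.4, 44.9 and 51.5 CPM (0.37, adjusted p = 0.291), above vehicle without overlap here and below it in all astrocytes. Lats2 was at 105 ± 4.71 CPM against 97.7 ± 11.1 CPM (0.10), and its groups overlapped.

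**Figure D4:**
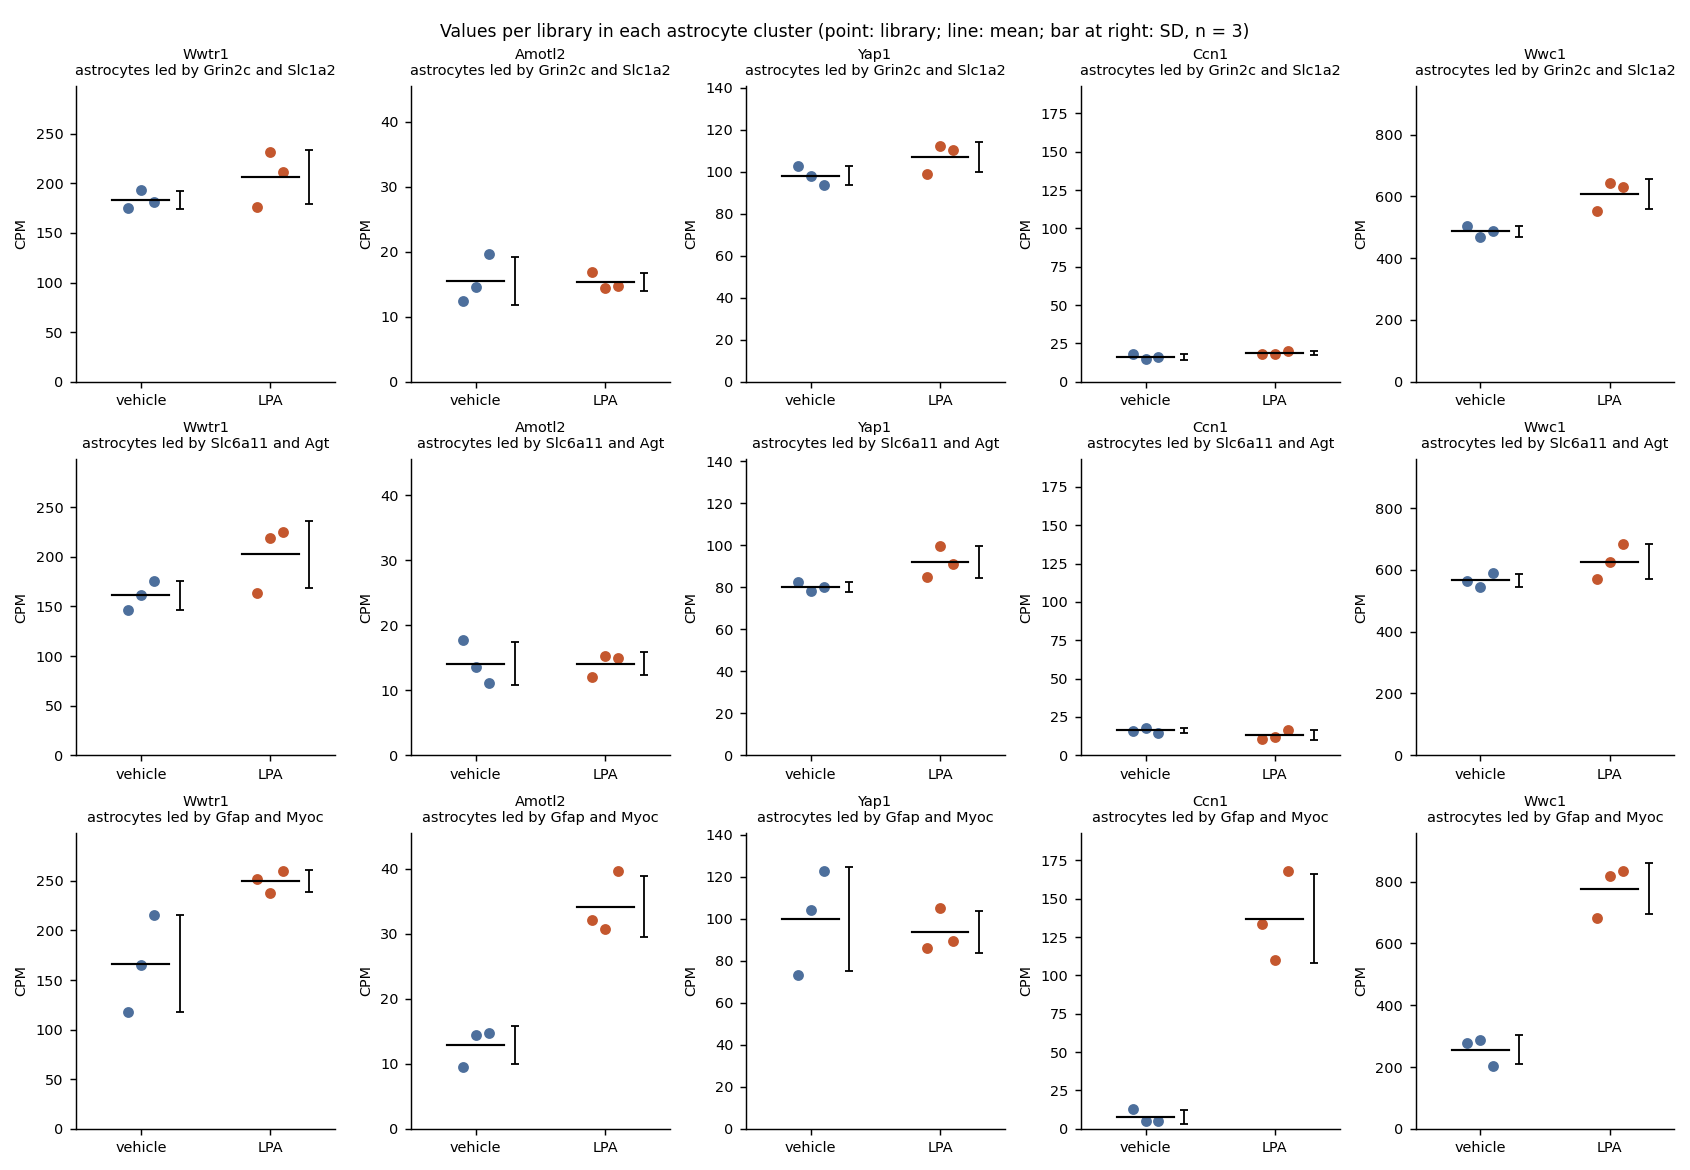
CPM of Wwtr1, Amotl2, Yap1, Ccn1 and Wwc1 in each library within the astrocyte clusters (rows), with 1 point per library, a line at the group mean and a bar for the SD (n = 3). In the cluster led by Gfap and Myoc, Amotl2 sits between 30.8 and 39.6 CPM in LPA libraries and between 9.57 and 14.7 CPM in vehicle libraries, and in the other clusters its groups overlap.

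Ccn1, which encodes the matricellular protein CYR61 and is a classical target of YAP and TAZ, moved further in this cluster than any member. It was at 133, 110 and 168 CPM in LPA and 12.8, 5.39 and 4.90 CPM in vehicle libraries. All 3 LPA libraries were high and all 3 vehicle libraries were near 0, with 599 UMIs against 9. Ccn1 rose by 4.25 on the log2 scale (SE 0.33, edgeR adjusted p = 1.85e-08), and the ratio of UMI rates was 18.1, with a 95% interval of 9.46 to 39.7 for counting error only. The summed markers of other types in the cluster were lower in LPA libraries for oligodendrocytes (1139 to 1335 against 1837 to 2546 CPM), their precursors (1112 to 1256 against 1416 to 1961 CPM), neurons (444 to 473 against 568 to 708 CPM) and meningeal cells (191 to 202 against 229 to 290 CPM). They were higher for pericytes and smooth muscle (213 to 250 against 160 to 206 CPM), a type in which Wwtr1 and Amotl2 were high. They overlapped for immune cells (121 to 154 against 98.2 to 184 CPM), endothelial cells (78.6 to 116 against 88.1 to 143 CPM), multiciliated ependymal cells (398 to 492 against 434 to 658 CPM) and choroid plexus epithelium (58.6 to 79.9 against 76.1 to 97.9 CPM). A nucleus of the cluster held on average 3264 to 3636 UMIs with LPA and 1931 to 2492 with vehicle, and the part of these markers and of this depth in the results was not tested.

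In the remaining astrocytes 0 of 10 members was called by edgeR, where 2.19% of all genes were. An unadjusted p under 0.05 was found for 1 member, a share not counted over all genes. Ccn1 was at 16.5 ± 2.12 CPM in LPA and 16.2 ± 1.09 CPM in vehicle libraries (0.04, 95% interval -0.27 to 0.34), and Amotl2 differed by -0.02 (-0.32 to 0.29). Lats2 was at 44.4 CPM against 45.9 CPM (-0.04, 95% interval -0.25 to 0.16) and Amot at 104 CPM against 108 CPM (-0.05, -0.21 to 0.10). The part of the larger share of the Gfap-rich cluster in the differences over all astrocytes was not tested. Wwtr1 in the remaining astrocytes was at 204 ± 28.9 CPM against 174 ± 9.15 CPM (0.22, edgeR adjusted p = 0.218). Between the Gfap-rich cluster and the other astrocytes the effect on Ccn1 differed by 3.88 (SE 0.28, limma adjusted p = 0.0104), a test that called 0.153% of all genes. The call for Ccn1 was lost without LPA 1 (3.78, adjusted p = 0.120), LPA 2 (3.94, 0.132), LPA 3 (3.79, 0.155) or vehicle 2 (3.77, 0.0584). No member was called in this test, and 1 of 10 had an unadjusted p under 0.05, beside 1513 of 10467 genes. The difference was 1.31 for Amotl2 (limma adjusted p = 0.0617) and 0.41 for Wwtr1 (0.474).

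TEAD factors recognise the letters GGAATG, which read CATTCC on the other strand, and these were searched on both strands in RefSeq promoters from 250 bases before to 50 bases after a gene's start. They were in 5 of the 9 members that have an entry (Amotl2, Lats2, Tead3, Wwtr1 and Yap1) and in 16.6% of 27025 genes. A gene was counted if any of its windows held the letters, and the 9 members have 14 windows. Of all 32851 windows of this length 14.7% held them. Of the YAP and TAZ targets, 7 of 15 with an entry held them. A match of letters is a description and no binding site. The 250 bases before the start are given for Ccn1 (chr3:145649986-145650235, minus strand), Amotl2 (chr9:102717554-102717803, plus strand) and Wwtr1 (chr3:57575911-57576160, minus strand). These are among the genes called in the Gfap-rich cluster that hold the letters. Crim1 is another (0.51, edgeR adjusted p = 0.0266, not called with DESeq2) and is not shown. The window of Amotl2 lies within the GENCODE span given for this gene above, since the RefSeq start used differs. The bases are from RefSeq on GRCm38.p6, 5′ to 3′, with the letters searched in capitals. These letters begin 103, 65 and 136 bases before the start.
Ccn1: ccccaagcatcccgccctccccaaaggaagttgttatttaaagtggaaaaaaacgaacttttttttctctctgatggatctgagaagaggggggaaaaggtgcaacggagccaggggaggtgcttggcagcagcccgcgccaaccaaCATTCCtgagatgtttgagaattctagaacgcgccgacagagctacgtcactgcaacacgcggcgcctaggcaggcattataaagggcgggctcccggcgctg
Amotl2: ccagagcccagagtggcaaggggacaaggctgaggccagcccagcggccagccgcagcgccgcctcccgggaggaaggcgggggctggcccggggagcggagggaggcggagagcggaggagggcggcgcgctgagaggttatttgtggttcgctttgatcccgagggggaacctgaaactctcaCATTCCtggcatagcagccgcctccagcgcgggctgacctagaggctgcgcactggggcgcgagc
Wwtr1: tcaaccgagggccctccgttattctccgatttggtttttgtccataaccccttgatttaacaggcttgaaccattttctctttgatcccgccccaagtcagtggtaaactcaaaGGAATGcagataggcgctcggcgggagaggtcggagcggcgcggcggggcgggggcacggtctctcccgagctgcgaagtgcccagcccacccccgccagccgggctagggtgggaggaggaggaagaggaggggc

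The other genes of the pathway were read from a list of 35, which holds the kinases upstream of LATS, polarity proteins, the striatin complex and TEAD partners. In astrocytes 33 were tested, 4 rose and 1 fell, with a median of 0.13, where 7.96% of all genes were called with a median of -0.01. Wwc1, which encodes the LATS activator KIBRA, rose from 493 ± 15.2 CPM in vehicle to 640 ± 56.8 CPM in LPA libraries (0.38, edgeR adjusted p = 0.00201), and its relative Wwc2 from 125 ± 8.60 to 158 ± 5.13 CPM (0.35). Crb2, a polarity protein of apical membranes, rose from 6.91 ± 1.89 to 21.8 ± 1.79 CPM (1.71, adjusted p = 4.34e-06). Dlg5, a scaffold of cell junctions, fell from 223 ± 19.5 to 174 ± 1.69 CPM (-0.36). The kinase gene Nuak2 rose on 39 UMIs against 10 (1.56), a call lost without LPA 1, 2 or 3 or vehicle 2 or 3 (1.29 to 1.76), with DESeq2 (1.59), with the sex covariate and without the mitochondrial filter (1.17).

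In the Gfap-rich cluster Wwc1 was at 778 ± 83.3 CPM in LPA and 257 ± 46.5 CPM in vehicle libraries (1.60, edgeR adjusted p = 3.59e-08), Wwc2 rose by 0.88 and Crb2 by 1.33. In the remaining astrocytes Wwc1 (0.26, adjusted p = 0.0649), Wwc2 (0.23, 0.121) and Dlg5 (-0.22, 0.125) were not called and Crb2 rose by 1.02. Wwc1 was also called in oligodendrocytes, at 17.5 ± 1.10 CPM against 9.98 ± 0.380 CPM (0.81, edgeR adjusted p = 9.42e-04), beside the precursor markers given for Lats2, and in multiciliated ependymal cells, at 911 ± 96.5 CPM against 664 ± 48.0 CPM (0.45, adjusted p = 0.0250). In the latter it was lost without LPA 3 (0.37), vehicle 2 (0.43) or vehicle 3 (0.41), and with Scrublet's doublets, 19.7% of this cluster, left out (0.29, adjusted p = 0.136). In meningeal cells Fat4, an atypical cadherin, fell (-0.52, lost without vehicle 3 at -0.48) and Ptpn14, a phosphatase that binds YAP, rose (0.35, lost without any 1 of the 6 libraries at 0.34 to 0.35, with DESeq2 at 0.35 and without the mitochondrial filter at 0.30). Tead2, Tead4 and Vgll4 were called in no type.

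The YAP and TAZ targets were read from a published signature of 22 genes, which holds the members Amotl2 and Lats2. In astrocytes 20 were tested, 5 rose and 2 fell, and their median was 0.20, where 7.96% of all genes were called with a median of -0.01. Ccn1 was at 42.5, 36.4 and 55.8 CPM in LPA and 17.0, 14.7 and 14.7 CPM in vehicle astrocytes, and rose by 1.54 (SE 0.15, edgeR adjusted p = 3.73e-06). Rbms3 (0.49), Arhgef17 (0.47), Nuak2 (1.56) and Ccdc80 (0.31) rose too, Ccdc80 losing the call without LPA 1 or 2 or vehicle 1 or 3 (0.25 to 0.29), with DESeq2 (0.31) and with the sex covariate (0.29), and Nuak2 as given above. F3, the gene of tissue factor, fell from 428 ± 44.1 to 327 ± 17.3 CPM (-0.39, adjusted p = 0.00261), and Fjx1 fell from 204 ± 26.4 to 153 ± 15.3 CPM (-0.42). Calls in both directions were thus made within 1 cell type. Without the Gfap-rich cluster, F3 (-0.27, adjusted p = 0.0693), Fjx1 (-0.24, 0.178), Rbms3 (0.28, 0.0926), Arhgef17 (0.23, 0.208) and Ccdc80 (0.16, 0.454) were not called by edgeR.

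**Figure D5:**
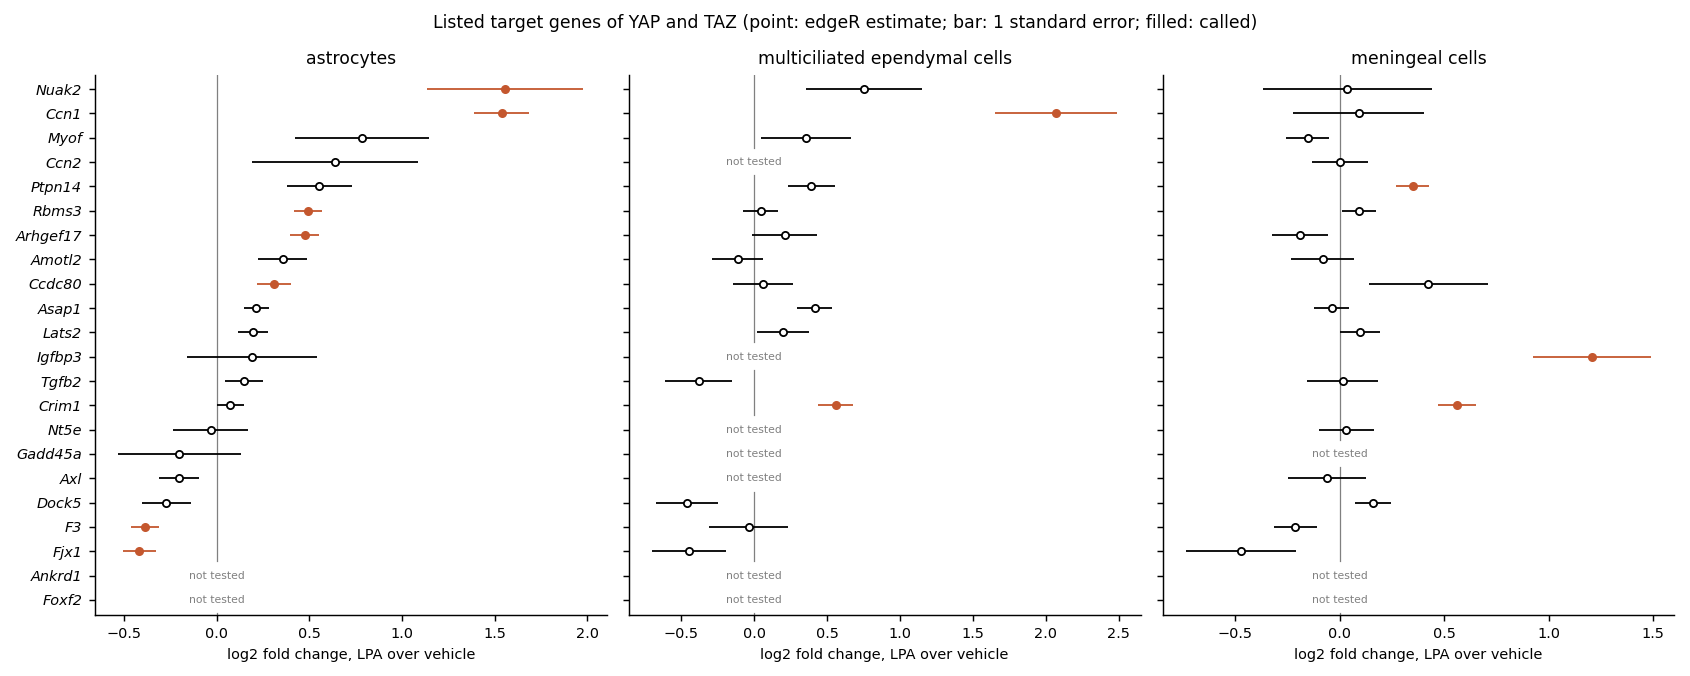
Log2 fold change of LPA over vehicle (horizontal axis) for the listed targets of YAP and TAZ in astrocytes, multiciliated ependymal cells and meningeal cells, as the edgeR estimate with a bar of 1 standard error, filled where called. Ccn1 is called in astrocytes (1.54) and multiciliated ependymal cells (2.07), and F3 (-0.39) and Fjx1 (-0.42) are called below 0 in astrocytes.

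Multiciliated ependymal cells, which line the ventricle, were the other type in which Ccn1 rose. It was at 41.0, 24.7 and 75.4 CPM in LPA and 10.6, 7.08 and 16.0 CPM in vehicle libraries (2.07, SE 0.42, edgeR adjusted p = 0.00669). The LPA libraries were widely spread but all above the vehicle ones, and the call was lost without LPA 3 (1.54) or vehicle 1 (2.00). Astrocyte markers in these sums ranged from 2295 to 3321 CPM in LPA and 2360 to 2821 CPM in vehicle libraries. Crim1, a transmembrane regulator of growth factors, rose by 0.56 both here (300 ± 15.8 against 202 ± 14.9 CPM) and in meningeal cells (528 ± 59.4 against 358 ± 18.9 CPM). Igfbp3 in meningeal cells rose by 1.21 on 61 and 57 UMIs, and lost the call without LPA 2 or 3 or vehicle 2 or 3 (1.02 to 1.16), with the sex covariate (1.13) and without the mitochondrial filter (1.07). Without that filter Crim1 in meningeal cells just lost its call (0.49).

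In immune cells Myof (2.35), Axl (1.71) and Asap1 (0.37) of the targets were called, on 5, 7 and 649 vehicle UMIs. Myof lost the call without vehicle 2 (1.75), without the mitochondrial filter (0.54, adjusted p = 0.289) and at a finer clustering, Leiden resolution 2 (0.19, 0.848). Axl lost it without LPA 3 (1.52), vehicle 1 (1.61) or vehicle 2 (0.86), with DESeq2 (1.61) and at resolution 2 (1.44). Asap1 lost it without LPA 2 or 3 or vehicle 1 or 2 (0.34 to 0.39) and with DESeq2 (0.38). A cluster rich in Gpnmb held 133, 197 and 205 immune nuclei in LPA and 0, 1 and 1 in vehicle libraries, and without it Asap1 was not called (0.20) and Myof and Axl had too few UMIs to be tested. Dock5 fell in oligodendrocyte precursors (-0.95), lost without LPA 1, 2 or 3 or vehicle 2 or 3 (-0.78 to -1.04). It was also lost at resolution 2 (-0.25, adjusted p = 0.897), with Scrublet's doublets left out (-0.74), without the mitochondrial filter (-0.94) and with DESeq2 (-0.95). Ccn2, the classical partner of Ccn1, was called in no type and was at 72.5 ± 16.0 CPM in LPA and 71.8 ± 4.95 CPM in vehicle meningeal cells. Ankrd1 had too few UMIs to be tested.

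Over all nuclei kept, named or not, 0 of 10 members was called by edgeR, where 5.62% of all genes were. A single member had an unadjusted p under 0.05, beside 4225 of 20207 genes. DESeq2, whose share over all genes is not given here, called that member. This was Wwtr1, at 82.6, 97.6 and 86.8 CPM in LPA and 68.0, 75.4 and 75.5 CPM in vehicle libraries (0.29, edgeR adjusted p = 0.0527, DESeq2 adjusted p = 0.00889). In such sums fewer cells of a type and less RNA per cell cannot be told apart. Ccn1 rose by 1.37 and Wwc1 by 0.53, while Ccn2 fell by 0.68 on the log2 scale over all nuclei beside 294 to 487 meningeal nuclei in an LPA library and 670 to 1152 in a vehicle library. Asap1 (0.31), Ccdc80 (0.60) and Tgfb2 (0.28) rose over all nuclei, and Nt5e (-0.32) and Dock5 (-0.56) fell. Of these, Ccdc80 was lost without LPA 1 or 2 or vehicle 3 (0.53 to 0.58), Tgfb2 without LPA 1, 2 or 3 or vehicle 2 or 3 (0.24 to 0.31), and Nt5e without LPA 1 or vehicle 3 (-0.28 to -0.30).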

How the data were processed

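Nuclei sorted as NeuN-negative from 3 LPA and 3 vehicle brains, as the labels group them, were sequenced as single-nucleus RNA. Per the labels and file headers, the authors made the deposited UMI counts with Cell Ranger 4.0.0 against mm10 pre-mRNA, which counts intronic reads, and deposited filtered matrices of raw counts without normalization. Kept nuclei had 300 or more genes, a mitochondrial share of UMIs up to 1%, and UMIs within 1.5 interquartile ranges of the upper quartile of their library. They were clustered with scanpy 1.11.5 (3000 variable genes without markers, members and sex-linked genes, 40 components, 30 neighbors, Leiden resolution 1, leidenalg 0.10.2). Of 41 clusters, 31 were named from their 8 best markers, by limits set after the clusters were seen, so that a type means nuclei like that type by markers. Scrublet called 12.3% to 15.4% of nuclei per library as doublets (expected rate 0.08). A cluster with more than 50% of such calls was left unnamed, so its nuclei are in no type. Named clusters held at most 29.2%, and their called nuclei were left out only in an alternative.

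UMIs were summed per library and type and tested with edgeR 4.0.16 (R 4.3.3, TMM, its default filter on low counts), and differences between types with limma 3.58.1 on log2 CPM at a prior count of 2. The scripts were tested on simulated data. The alternatives were DESeq2 1.42.0, no filter on low counts, each library left out, a replicate block, the sex of the library, no mitochondrial filter, doublets left out, Leiden resolution 2, the 6 classes of the study, and a prior count of 0.5. Single astrocyte clusters and types without 1 cluster were added after seeing the data. The depth of each library sets the precision, and intervals of UMI ratios cover counting error only. Positions came from GENCODE on GRCm38.

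The named genes are the 10 members, every gene of the lists of other pathway genes and targets called in a type, the classical targets, Tead2, Tead4, Vgll4 and the 3 genes most alike in pattern. Members and lists were chosen with earlier results of these data known. The study tested single nuclei. Here the library was the replicate. A further list of genes is not reported here.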

Additional observations from a re-analysis of the deposited data

Results flagged for a closer look

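The effect of LPA on Ccn1 differed between the Gfap-rich cluster and the other astrocytes by 3.88 on the log2 scale (limma adjusted p = 0.0104). Ccn1 was at 137 ± 29.1 CPM in LPA and 7.68 ± 4.41 CPM in vehicle libraries of the Gfap-rich cluster, and at 16.5 ± 2.12 and 16.2 ± 1.09 CPM in the other astrocytes. The clusters were compared after the values of all astrocytes had been seen.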

How the results depend on the processing

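Of 1328 values of a member under an alternative, 1311 stayed on the same side of the threshold in the same direction, 6 lost the call, 11 gained one and 0 reversed. For the genes of the other lists these counts were 2783, 78, 17 and 1 of 2879, and the reversal was Ptpn14 in astrocytes, uncalled at 0.55 (adjusted p = 0.0603) and called at -0.44 without the mitochondrial filter (0.0154). It was called at 0.56 with no filter on low counts, 0.60 with Scrublet calls left out and 0.66 at Leiden resolution 2. The number of member and type pairs called, 1 in the report, was 3 with no filter on low counts, 2 without the mitochondrial filter, 2 with Scrublet calls left out, 6 with the 6 classes of the study and 0 to 2 with a library left out. With the 6 classes, Wwtr1 (0.37) and Tead3 (-0.47) were called in vascular cells, beside 1182 of 14263 genes. Tead1 (0.37), Amotl1 (0.42) and Lats2 (0.31) were called in oligodendrocytes joined with precursors, beside 1798 of 15330 genes. Vascular cells joined meningeal cells, pericytes and smooth muscle, and endothelial cells. LPA libraries held 294 to 487 meningeal and 261 to 324 endothelial nuclei, vehicle libraries 670 to 1152 and 252 to 335. In vehicle libraries Wwtr1 was at 228 CPM in meningeal and 468 CPM in endothelial cells, and Tead3 at 37.5 and 7.66 CPM. The part of this mix was not tested. Precursors made up 659, 966 and 693 of 1723, 2353 and 1959 joined nuclei in LPA libraries and 466, 708 and 523 of 1914, 2778 and 2502 in vehicle libraries. Within oligodendrocytes and precursors Tead1 differed by -0.01 and 0.04 and Amotl1 by 0.10 and 0.14, and Tead1 was at 13.9 and 83.3 CPM in their vehicle libraries. In astrocytes the members called were 0 with the sex of the library as a covariate, 0 to 1 with a library left out, 0 without the Gfap-rich cluster and, in single clusters, 0, 0 and 2. In oligodendrocytes 1 was called with no filter, 1 without the mitochondrial filter and 0 to 1 with a library left out. In multiciliated ependymal cells 1 was called with no filter, 1 with the sex covariate and 1 with Scrublet calls left out. Over all nuclei 1 was called with DESeq2, 1 with no filter and 1 with Scrublet calls left out.

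Of the other pathway genes 9 pairs were called, and 14 with the 6 classes. Of the targets 16 were called, 9 with DESeq2, 25 with the 6 classes and 9 to 14 with a library left out. With Scrublet calls left out, vehicle levels without TMM moved to 192 CPM for Yap1 in choroid plexus epithelium, 646 CPM for Wwtr1 in endothelial cells and 689 CPM for Tead1 in choroid plexus epithelium. The difference for Ccn1 between the Gfap-rich cluster and other astrocytes was 3.73 to 4.22 with a library left out.

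For samples with the same number, the correlations of their deviations were 0.092, 0.17 and -0.12 in astrocytes. By the sex read from the UMIs, samples 1 and 2 match between the groups and samples 3 do not. Over all nuclei they were 0.11, 0.24 and -0.033. In endothelial and multiciliated ependymal cells each LPA library was nearest to the vehicle library of its number, and in astrocytes 1 of 3 was. With 3 libraries per group this cannot show whether the numbers pair samples, and the main tests do not pair them. With the replicate block 2 member and type pairs were called, 1 of them in multiciliated ependymal cells, 1 member was called over all nuclei, and the Ccn1 difference of 3.88 had a limma adjusted p of 0.0810. The causes of these changes were not tested. Depth limits immune cells most, where 4 members were not tested.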
